A study of Mus musculus with 30 samples.

Results

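The genes described here are the secreted ligands of the Wnt pathway, their receptors and co-receptors, their antagonists and the regulators that act directly on them in mouse embryonic stem cells. They were taken by gene symbol, as the protein-coding genes named Wnt, Fzd, Dkk, Sfrp, Lrp5, Lrp6, Axin, Lgr4 to Lgr6, Rspo, Tcf7, Tcf7l1, Tcf7l2, Nkd, Rnf43 or Znrf3, without reference to any measured value. The rule found 55 genes among 55401 in the count tables. These were 19 ligands, 10 Frizzled receptors, 2 co-receptors, 4 R-spondins, 3 Lgr receptors, 2 E3 ligases, 8 secreted antagonists, 4 intracellular regulators and 3 nuclear factors.

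The study sequenced nuclear RNA to ask how transcription changes when SRCAP, the ATPase of a complex that loads the histone variant H2A.Z, is rapidly removed. In SYAT cells, a line made from CGR8 mouse embryonic stem cells, both alleles of Srcap carry a YPet-AID tag, and the plant protein OsTir1 degrades the tagged protein when indole-3-acetic acid (IAA, 500 µM) is added. The tagged parent was a single homozygous clone. SYAT control cells were kept in auxinole, an inhibitor of OsTir1, and treated cells had IAA in the medium for 2, 4, 6 or 8 h. The untagged CGR8 parent, as a control or with IAA for 4 h, served as the control for IAA itself. The labels list auxinole in the growth protocol of all SYAT groups, with the sorted cells and the transgene lines, but of neither CGR8 group. The CGR8 comparison therefore does not cover auxinole. SYAT cells sorted in early G1 (EG1) or late G1 (LG1) had 1 h of IAA or none. SYAT lines that express wild-type SRCAP (wtSRCAP) or a catalytically dead form (cdSRCAP) from a transgene, each a single clone, were given doxycycline (1 µg/mL) for 24 h, with or without IAA for 4 h. Each of the 15 groups had 2 libraries, stated to be biological duplicates. The cells were grown with a GSK3 inhibitor, which activates the Wnt pathway, in routine culture, and the medium was changed to one without it before the experiments.

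Wnt proteins bind Frizzled receptors together with the co-receptors Lrp5 or Lrp6, which stabilizes beta-catenin, and beta-catenin then acts with the TCF/LEF factors on target genes. Sfrp proteins bind Wnt ligands outside the cell and Dkk proteins block the co-receptors, while R-spondins bind Lgr receptors and keep the E3 ligases Rnf43 and Znrf3 from clearing Frizzled from the surface. Axin2, Lgr5, Nkd1, Rnf43, Znrf3, Tcf7 and Dkk1 are known as feedback targets of the pathway, and in mouse embryonic stem cells Wnt activity, in which Tcf7l1 is the main repressor, favours self-renewal.

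The promoters of 3 members are shown because the levels and comparisons below return to these genes: Wnt3 had the highest mean level of the ligands in SYAT control cells, Fzd7 the highest of the receptors there, and Axin2 is the feedback gene most often used as a readout of the pathway. Each run holds 250 bases before and 50 after a RefSeq start site (GRCm38.p6), written 5′ to 3′ along the gene, at chr11:103773925-103774224 (plus strand) for Wnt3, chr1:59481897-59482196 (plus strand) for Fzd7 and chr11:108920099-108920398 (plus strand) for Axin2. Capitals mark a match to the TCF/LEF words CTTTGAA, its variant CTTTGAT, its variant CTTTGTA or its variant CTTTGTT on either strand, which differ only in their last letters and do not overlap each other here.
Wnt3: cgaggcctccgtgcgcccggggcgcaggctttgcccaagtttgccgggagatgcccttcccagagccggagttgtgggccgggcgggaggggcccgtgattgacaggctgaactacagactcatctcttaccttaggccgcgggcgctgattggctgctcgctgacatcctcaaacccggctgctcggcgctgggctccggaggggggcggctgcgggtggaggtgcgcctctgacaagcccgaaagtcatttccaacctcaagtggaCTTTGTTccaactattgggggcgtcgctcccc
Fzd7: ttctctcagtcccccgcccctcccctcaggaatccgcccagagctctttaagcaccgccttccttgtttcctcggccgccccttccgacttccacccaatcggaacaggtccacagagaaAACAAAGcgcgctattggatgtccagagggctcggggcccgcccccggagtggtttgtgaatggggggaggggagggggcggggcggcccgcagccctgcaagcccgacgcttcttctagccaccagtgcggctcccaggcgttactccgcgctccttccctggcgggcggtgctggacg
Axin2: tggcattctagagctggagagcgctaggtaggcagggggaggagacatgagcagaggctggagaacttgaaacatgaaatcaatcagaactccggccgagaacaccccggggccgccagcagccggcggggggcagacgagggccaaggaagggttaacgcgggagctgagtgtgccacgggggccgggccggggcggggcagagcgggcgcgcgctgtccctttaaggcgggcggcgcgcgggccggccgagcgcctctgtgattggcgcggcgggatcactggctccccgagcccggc
The match began at base 19 after the start in Wnt3 and 130 bases before it in Fzd7, there on the opposite strand, and the Axin2 window held none of these words. RefSeq promoters were matched for 36 of the 55 members, with 42 start sites, and 6 of these windows held a match (Dkk1, Fzd7, Tcf7l2, Wnt3, Wnt5b and Wnt11), beside 16.9% of all 32851 promoters.

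Levels between genes were compared as RPKM, the reads per kilobase of exon at an equal library size, computed here. In SYAT control cells 29 of the 55 members reached 1 RPKM, and they were mostly receptors and intracellular members. All 10 Frizzled receptors passed that level, as did both co-receptors and all 3 nuclear factors, but only 4 of the 19 ligands, 4 of the 8 antagonists and 1 of the 4 R-spondins. The plot of levels by role shows the step between the groups.

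**Figure D1:**
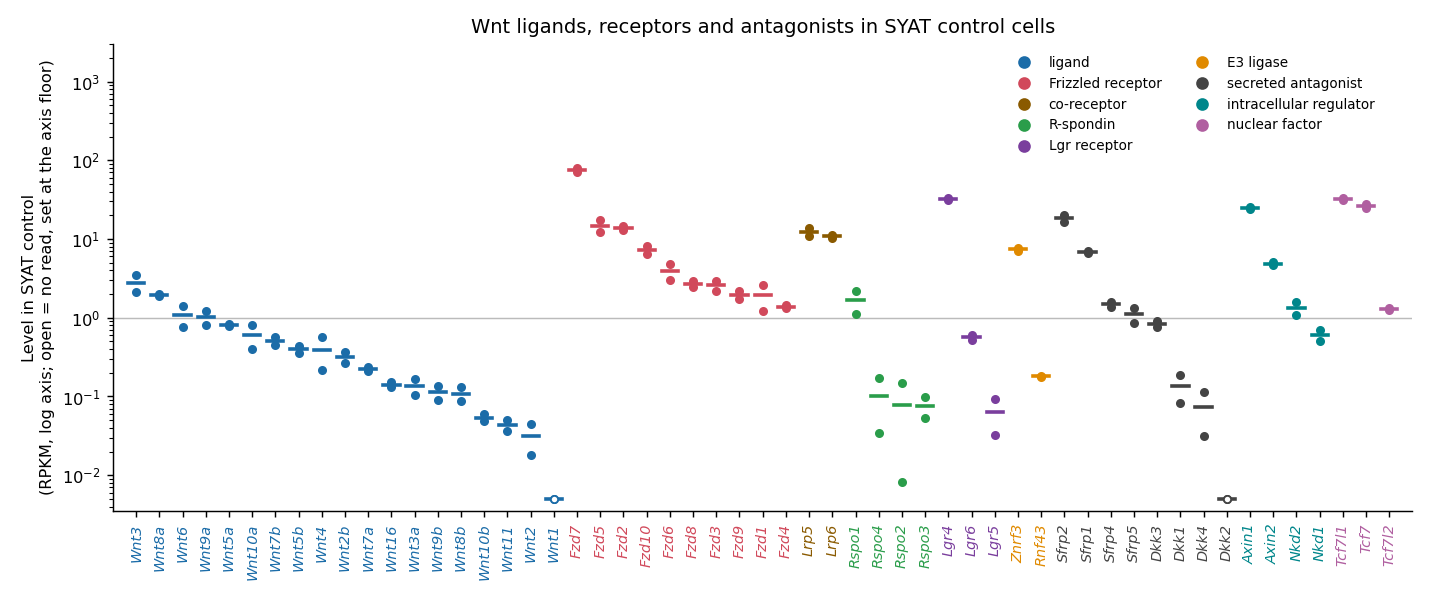
Level of each member in the 2 SYAT control libraries (points) and their mean (bar), as RPKM on a log axis, sorted within each role. The grey line marks 1 RPKM, and open points are libraries with no read, drawn at the floor of the axis. Fzd7 stands highest at 75.2 RPKM, and all ligands lie below 3 RPKM on average.

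Among the receptors, Fzd7 was the most abundant at 75.2 ± 6.16 RPKM (SD, n = 2), followed by Fzd5 at 14.7 ± 3.51 and Fzd2 at 13.9 ± 1.28. Fzd5 and Fzd2 did not differ beyond their spread, and the lowest of them, Fzd4, stood at 1.39 ± 0.084. The co-receptors Lrp5 and Lrp6 were at 12.4 ± 2.15 and 10.8 ± 0.66 RPKM, again within their spread of each other.

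The ligands were scarce. Wnt3, at 2.78 ± 0.95 RPKM, and Wnt8a, at 1.95 ± 0.11, had the highest means, and did not differ beyond their spread. The order was another in CGR8 control cells, where Wnt7b at 1.12 ± 0.43 and Wnt6 at 1.04 ± 0.034 RPKM stood above Wnt3 at 0.591 ± 0.14. The median over the 19 ligands was 0.314 RPKM. Wnt1 and Dkk2 had no read in either control library. The detection limit, 3 reads per library, was set and not measured.

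Of the genes that tune receptor number, Lgr4 was at 32.2 ± 0.89 RPKM and Lgr6 at 0.563 ± 0.065, and Lgr5 was at 0.0629 ± 0.043. The ligase Znrf3 was at 7.44 ± 0.43 and its relative Rnf43 at 0.180 ± 0.0036. Rspo1 was the highest R-spondin at 1.66 ± 0.75. Rspo4, at 0.103 ± 0.096, had 2 to 10 reads in the libraries of the time course. The lowest R-spondin, at 0.0759, lay within that spread.

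Among the antagonists, Sfrp2 stood at 18.5 ± 2.84 RPKM and Sfrp1 at 6.85 ± 0.34, with Dkk1 at 0.135 ± 0.073. The intracellular scaffold Axin1 was at 24.8 ± 0.98 and its inducible relative Axin2 at 4.87 ± 0.36, while Nkd1, which inhibits Dishevelled, was at 0.604 ± 0.14. Of the nuclear factors, the repressor Tcf7l1 was at 32.2 ± 1.48, Tcf7 at 26.5 ± 2.24 and Tcf7l2 at 1.29 ± 0.031.

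Not every member could be tested. After the filter on low counts, 47 of the 55 entered the test in CGR8, 47 in the SYAT time course, 49 in the sorted G1 cells and 45 in the wtSRCAP and cdSRCAP lines. Wnt1, Wnt2, Dkk2 and Dkk4 passed in none of the 4 tables. In any library they had at most 2 reads (Wnt1), 15 (Wnt2), 3 (Dkk2) and 7 (Dkk4).

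The libraries held 45617992 to 60214521 exon reads in CGR8, 17540823 to 22873893 in the time course, 19740778 to 26672402 in the G1 cells and 12236493 to 26369773 in the wtSRCAP and cdSRCAP lines. The wtSRCAP library with 4 h of IAA, replicate 1, was the shallowest, with 23.9% of its reads in 1 gene. Srcap itself had 815 and 936 normalized counts in SYAT control and 917 to 1231 with IAA, which does not check the labels since IAA degrades the protein. It had 899 to 1080.0 in the wtSRCAP and 1087 to 1369 in the cdSRCAP libraries. The 7 pluripotency markers (Pou5f1, Sox2, Nanog and others) summed to between 1206 and 3524 CPM (counts scaled by library total) in the 15 groups, and none was at 0. All of the 5 lists of other cell types were higher in both 6 h libraries than in both SYAT controls. The mesendoderm and trophoblast lists were so at 2, 4 and 8 h as well, and the primitive endoderm list at 8 h. The 4 mesendoderm markers, led by Eomes, summed to 8.14 to 11.5 CPM in SYAT control and 15.3 to 15.4 at 6 h, and the 4 fibroblast markers to 21.6 to 26.7 and 30.9 to 38.4. The trophoblast list went from 14.7 to 15.4 in control to 20.6 to 23.6, the primitive endoderm list from 12.9 to 16.1 to 17.3 to 17.7, and the neural list from 130.3 to 219 to between 220.8 and 221. In the lines, the fibroblast markers summed to 4.99 to 5.4 in wtSRCAP control, 12 to 12.3 in wtSRCAP with IAA, 6.48 to 7.43 in cdSRCAP control and 8.34 to 8.73 in cdSRCAP with IAA. The pluripotency markers summed to 2209.6 to 2248 in wtSRCAP and 2607 to 3189.8 in cdSRCAP control, and to 2527 to 2907 and 3149.7 to 3524 with IAA. Their part in the results below was not tested. A bulk measurement cannot tell fewer cells that express a gene from less RNA in each cell.

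The CGR8 cells were compared to see what IAA does without the tag. None of the 47 members tested was called at a log2 fold change beyond 0.5 and a Benjamini-Hochberg adjusted p under 0.05 in edgeR, nor in DESeq2, in a comparison where 0.00988% of all 20250 genes were called. At an unadjusted p under 0.05 no member was higher and 3 were lower, against 5.04% of all genes higher and 4.12% lower. These were Fzd7, the co-receptor Lrp5 and Nkd2, a Dishevelled inhibitor. Fzd7 had normalized counts (reads scaled to the same library size within a table) of 13320.0 and 12805 in control and 10279 and 10066 with IAA. Both IAA libraries were below both controls, with a log2 fold change of -0.36 ± 0.12 (SE) and an edgeR adjusted p of 0.54. The log2 differences in Lrp5 and Nkd2 were -0.34 ± 0.14 and -0.58 ± 0.25. The median log2 fold change of the members was -0.06, and 28 of 47 were below 0.

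In the SYAT time course, the members were measured at 2, 4, 6 and 8 h after IAA against the same 2 control libraries, so the 4 comparisons share their controls. Without a block on replicate number, no member was called at any time by edgeR or by DESeq2. Over all 19205 genes edgeR called 0% at 2 h, 0% at 4 h, 0.0677% at 6 h and 0.00521% at 8 h. At an unadjusted p under 0.05, 1 member was higher and 0 lower at 2 h, where 1.37% of all genes were higher and 2.55% lower. At 4 h, 3 were higher and 1 lower against 3.09% and 6% of all genes, and at 8 h 3 were higher and 0 lower against 5.13% and 8.44%. Deviations of same-numbered control and treated libraries correlated at 0.331 at 2 h, 0.372 at 4 h, -0.0359 at 6 h and 0.305 at 8 h. In a fit blocked on that number edgeR called Fzd2 and Sfrp1 at 6 h and Sfrp1 at 8 h. The shares of all genes called in that fit are given in the closing section on processing.

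At 6 h, 8 members were higher and 0 lower at an unadjusted p under 0.05, beside 7.93% of all genes higher and 8.21% lower. These were Sfrp1, Fzd2, Wnt3a, Fzd9, Wnt5b, Axin2, Wnt7b and Wnt8a, of which 4 are ligands. Replicate 2 of the 6 h libraries stood apart from the rest of the time course. It had a scaled library size of 16284500 for 19077973 reads and 10.2% of its reads in 1 gene. Its pluripotency sum, 1903 CPM on that scaled size, was the highest of the time course. Replicate 1 had a scaled library size of 17234300 for 17540823 reads and 7.84% in 1 gene. The correlation between the 6 h replicates, 0.968, was the lowest of the 5 times. Without replicate 2, 6 members were higher and 0 were called, and without replicate 1, 9 were higher and 6 were called, where 15.4% of all genes were called. Without control replicate 2, 1 member was higher at an unadjusted p under 0.05. In 19 of the 47 members both 6 h libraries lay above both controls, and in 3 both lay below, against 21.5% and 22.2% of all genes. The median log2 fold change of the members was 0.17, beside 0.01 over all genes, and 32 of 47 were above 0. By role, 11 of 15 ligands, 7 of 10 Frizzled receptors and 3 of 6 antagonists were above 0. At 8 h the median was 0.03 in the members and 0.03 over all genes.

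**Figure D2:**
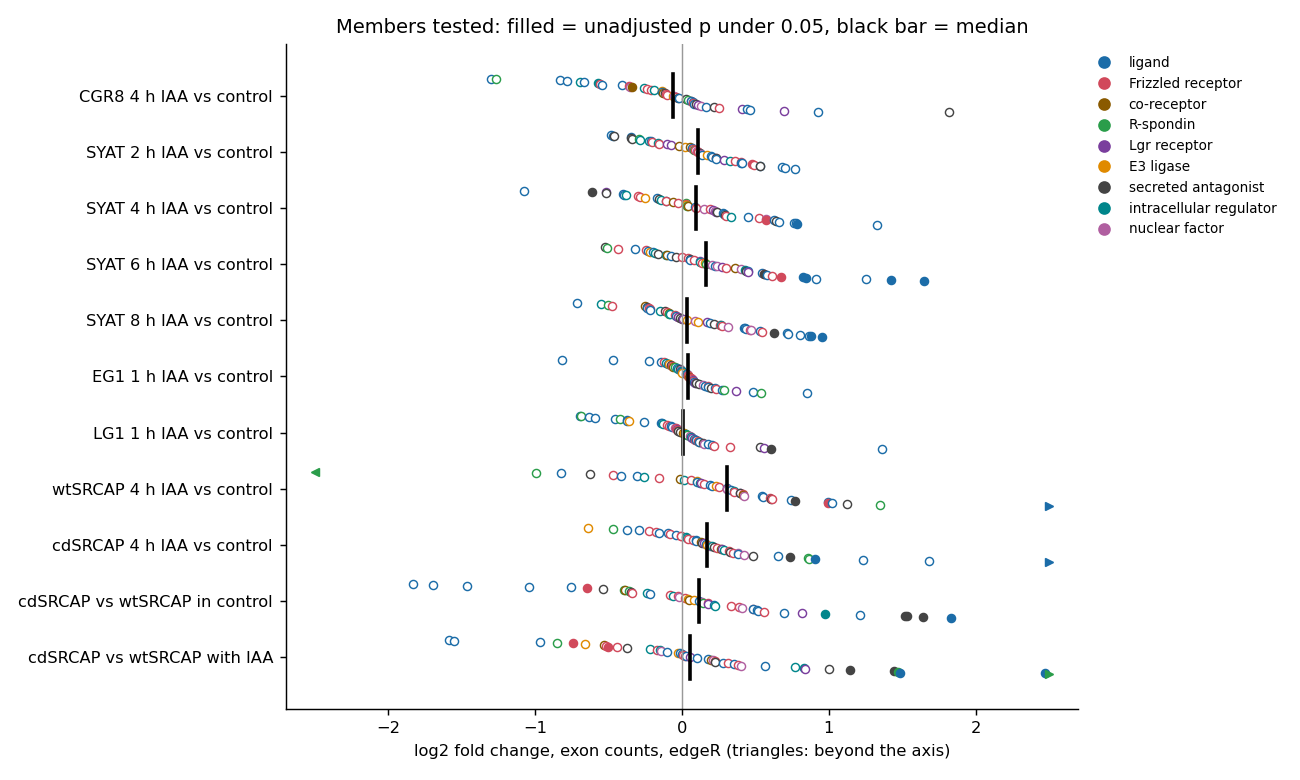
Log2 fold change of every member tested (points, coloured by role) in 11 comparisons, from edgeR on exon counts. Filled points passed an unadjusted p under 0.05, triangles lie beyond the axis, and black bars are the medians of the members. The medians with IAA were 0.17 at 6 h in SYAT, 0.31 in wtSRCAP and 0.17 in cdSRCAP cells, and -0.06 in CGR8.

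Sfrp1 encodes a secreted Wnt antagonist. Its normalized counts were 591 and 634 in control, 666 and 668 at 2 h, 765 and 737 at 4 h, 885 and 922 at 6 h, and 1021 and 869.9 at 8 h. The libraries of every time point lay above the controls, and those of 6 and 8 h lay above those of 2 and 4 h. The log2 fold change was 0.56 ± 0.14 at 6 h and 0.63 ± 0.14 at 8 h, with edgeR adjusted p of 0.107 and 0.0972 without the replicate block. With that block edgeR called Sfrp1 at 6 h and at 8 h. In DESeq2 the adjusted p at 8 h was 0.0363, with a shrunken log2 fold change of 0.48 that did not reach 0.5. The intron column of the same table listed 0 reads for Sfrp1 in both control libraries and up to 507 at 8 h, whereas the CGR8 control libraries had 206 and 350. The reason for those zeros was not tested.

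Fzd2, a Frizzled receptor, had normalized counts of 1109.8 and 974 in control, 1504 and 1396 at 2 h, 1719 and 1385 at 4 h, 1481 and 1584 at 6 h, and 1364 and 1153 at 8 h. All treated libraries were above both controls, and those of 8 h were below those of the other times. The log2 fold change was 0.48 ± 0.15 at 2 h, 0.57 ± 0.15 at 4 h and 0.56 ± 0.15 at 6 h, with edgeR adjusted p of 1, 0.257 and 0.135. Fzd9 was at 101 and 81 in control and 127 and 164 at 6 h, a log2 difference of 0.68 ± 0.25 with an edgeR adjusted p of 0.224. The most abundant receptor, Fzd7, was at 7371 and 6564 in control and 6821 and 8494 at 6 h, where the groups overlapped.

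Axin2, the negative regulator that beta-catenin induces, had 576 and 519 normalized counts in control, 653 and 717 at 2 h, 699 and 679 at 4 h, 628 and 846 at 6 h, and 651 and 666 at 8 h. Its treated libraries were above both controls throughout. The log2 fold change at 6 h was 0.43 ± 0.17 with an edgeR adjusted p of 0.253. Of the other feedback genes, none passed an unadjusted p under 0.05 at 6 h. Znrf3 was at 1249 and 1150.4 in control and 1282 and 1398 at 6 h, and Tcf7 went from 1507 and 1337 to 2036 and 1246, with overlap. Nkd1 was at 65.2 and 47.3 in control against 51 and 47.7 at 6 h, and Rnf43 at 23.8 and 24.5 against 21.3 and 20.1. Lgr5 and Dkk1 had under 20 reads in every library of the time course.

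**Figure D3:**
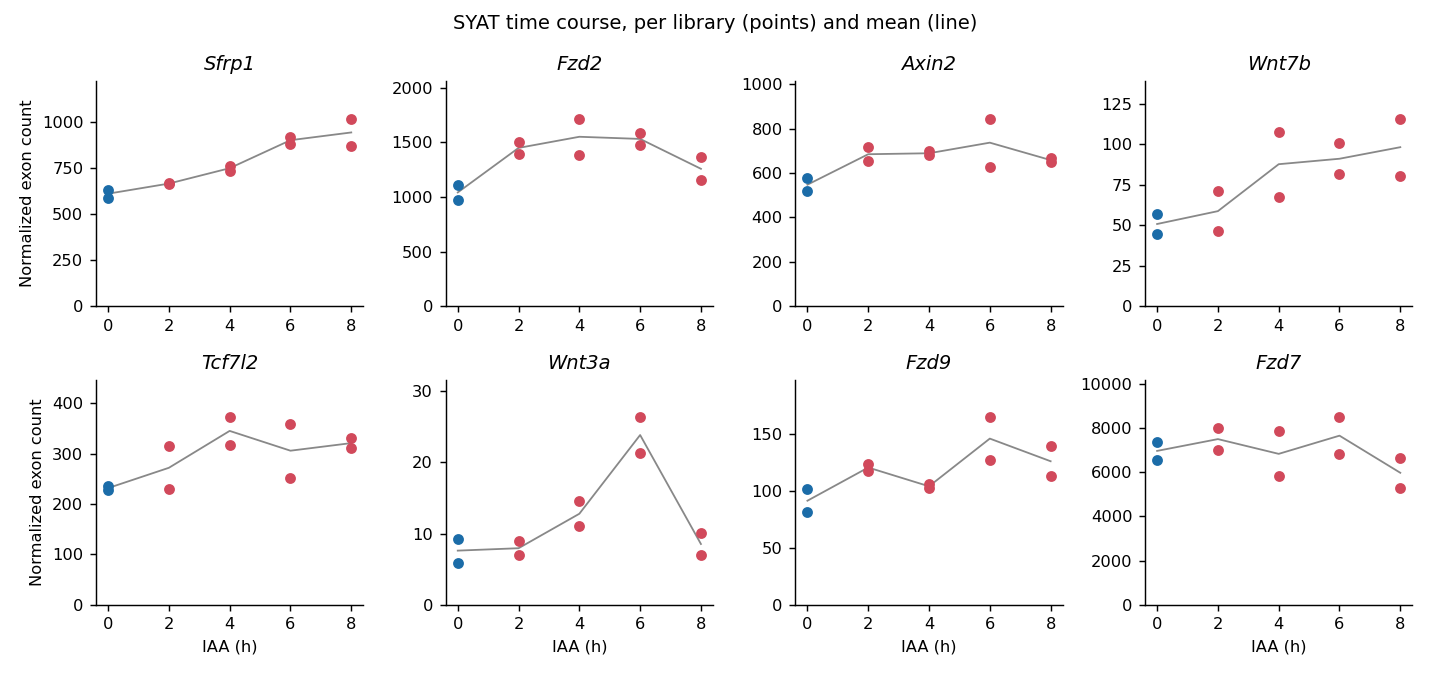
Normalized exon counts of 8 members in the SYAT time course against hours of IAA, with the 2 libraries of each time as points (blue for control, red for IAA) and their mean as a line. Sfrp1 went from 591 and 634 in control to 1021 and 869.9 at 8 h, while Fzd7 overlapped its controls at every time.

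The ligands that passed at 6 h had few reads. Wnt7b had 56.9 and 44.7 normalized counts in control, 108 and 67.7 at 4 h, 101 and 81.6 at 6 h, and 116 and 80.6 at 8 h. Its log2 fold change was 0.79 ± 0.35 at 4 h, 0.85 ± 0.36 at 6 h and 0.95 ± 0.35 at 8 h, with edgeR adjusted p of 0.549, 0.282 and 0.273. Wnt8a, next to Wnt3 among the ligands by level, was at 72.4 and 66.7 in control, 133 and 113 at 6 h and 164 and 92.4 at 8 h. At 4, 6 and 8 h both libraries of each lay above both controls. Wnt3a rested on 9 and 7 raw reads in control and 18 and 21 at 6 h, and Wnt5b on 23 and 23 against 29 and 65. Wnt3 itself was at 217 and 133 in control and 200.4 and 207 at 6 h, and overlapped.

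At 4 h the nuclear factor Tcf7l2 was at 372 and 318 normalized counts against 228 and 235 in control, a log2 difference of 0.57 ± 0.23 with an edgeR adjusted p of 0.465. Sfrp4, a secreted antagonist, was the member that was lower there, at 74.9 and 91.7 against 118 and 137, a log2 difference of -0.61 ± 0.24 with an edgeR adjusted p of 0.476. Neither set of libraries overlapped its controls.

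The rest of the pathway was counted in a list of 47 genes for Wnt secretion, other receptors and antagonists, the cytoplasmic core, nuclear partners and target genes, of which 43 were tested in the time course. None was called at any time by edgeR. At an unadjusted p under 0.05, 2 were higher and 0 lower at 2 h, 5 and 2 at 4 h, 11 and 3 at 6 h, and 6 and 5 at 8 h, beside the shares of all genes given above. In CGR8 cells 3 of 45 were higher with IAA (Porcn, Lef1 and Tle4) and 2 lower (Tle1 and Pygo2). The log2 fold change of Lef1, a TCF/LEF factor, was 0.70 ± 0.21 in CGR8 and 0.46 ± 0.15 at 2 h in SYAT. That of Tle4 was 0.31 ± 0.13 in CGR8 and 0.25 ± 0.11 at 6 h in SYAT. Tle1 had -0.48 ± 0.16 in CGR8 and 0.77 ± 0.26 at 6 h in SYAT. At 6 h the 3 lower ones were Btrc, the ligase adaptor for beta-catenin, with a log2 fold change of -0.50 ± 0.16, Dvl3, a Dishevelled protein, with -0.35 ± 0.14, and Amer1, a partner of Axin, with -0.33 ± 0.14. The co-repressor Tle3 stood highest in significance at 0.62 ± 0.12 with an edgeR adjusted p of 0.0679. Of the 8 target genes tested, 4 were higher and 0 lower at 6 h at an unadjusted p under 0.05. Myc had a log2 fold change of 0.57 ± 0.14, Ccnd1 of 0.62 ± 0.16, Sp5 of 0.91 ± 0.39 and Eomes of 0.71 ± 0.26. The edgeR adjusted p was 0.105 for Myc, 0.122 for Ccnd1, 0.294 for Sp5 and 0.224 for Eomes. Eomes is also among the mesendoderm markers above. Porcn, the acyltransferase that Wnt ligands need for secretion, had 1.49 ± 0.53 at 6 h and was also higher with IAA in untagged CGR8 cells, by 0.44 ± 0.16 with an unadjusted p of 0.0213. Notum, the enzyme that removes that modification, had 1.09 ± 0.37 at 6 h.

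The G1 cells tested whether 1 h of IAA moved the members at a given point of the cycle. Here a call was a log2 fold change beyond 0.25 with an unadjusted p under 0.05. In EG1 none of the 49 members tested was called, nor did any pass an unadjusted p under 0.05, beside 1.22% of all 21020 genes. DESeq2 called none in EG1 either. In LG1 1 member was called, Sfrp4, beside 1.02% of all genes. Sfrp4 had 170.4 and 165 normalized counts in LG1 control and 254 and 257 with IAA. In EG1 it had 191 and 217 in control and 242 and 226 with IAA. The LG1 and EG1 libraries with IAA both lay above their own controls, and its log2 fold change was 0.61 ± 0.16 in LG1, with an unadjusted p of 0.00505 and an edgeR adjusted p of 1. The difference of the IAA responses, EG1 less LG1, was -0.41 ± 0.22 in Sfrp4, with an edgeR adjusted p of 1. DESeq2 did not call Sfrp4. A blocked edgeR fit on replicate number called 3 members in LG1, Fzd8, Sfrp4 and Wnt9a, beside 4.2% of all genes, and DESeq2 with the block called 0.

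Between EG1 and LG1 control cells, no member was called at a log2 fold change beyond 0.5 and an adjusted p under 0.05 by edgeR or DESeq2, and none passed an unadjusted p under 0.05, where 1.44% of all genes did. For the IAA responses of EG1 and LG1 the same held, beside 0.699% of all genes.

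The wtSRCAP and cdSRCAP lines ask whether the ATPase activity of SRCAP is needed for the response. To that end each was compared with and without IAA. With 4 h of IAA no member was called in wtSRCAP cells by edgeR or DESeq2, where edgeR called 0.00523% of all 19111 genes. At an unadjusted p under 0.05, 4 of the 45 members tested were higher and 1 lower, beside 2.93% and 4.48% of all genes. In cdSRCAP cells edgeR and DESeq2 called none, against 0% of all genes in edgeR, and 3 were higher and 0 lower at an unadjusted p under 0.05, against 1.65% and 3.99%. The median log2 fold change of the members was 0.31 in wtSRCAP and 0.17 in cdSRCAP cells, beside -0.02 and 0.02 over all genes. In wtSRCAP 15 members had both IAA libraries above both controls and 5 had both below, against 14.9% and 19.5% of all genes. In cdSRCAP the numbers were 20 and 1, against 18.7% and 19%. Same-numbered libraries of the lines deviated together, with correlations of 0.259 to 0.376. In a fit blocked on that number edgeR called 3 members in wtSRCAP, Fzd4, Sfrp1 and Sfrp2, beside 3.2% of all genes, and DESeq2 called 2, Fzd4 and Sfrp2, beside 1.5%. In cdSRCAP both called 0 with the block, beside 1.81% of all genes in edgeR.

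Sfrp2, the antagonist with the highest RPKM in SYAT control cells, passed in both lines. It had 315 and 245 normalized counts in wtSRCAP control and 511 and 444 with IAA, while in cdSRCAP it had 244 and 198 in control and 433 and 303 with IAA. The log2 fold change was 0.77 ± 0.27 in wtSRCAP and 0.74 ± 0.27 in cdSRCAP, with edgeR adjusted p of 0.644 and 0.808. The groups did not overlap in either line, and the responses of the lines differed by -0.03 ± 0.39. In the intron column, on 13 to 45 reads a library, the direction was the opposite in both lines, with log2 fold changes of -0.12 in wtSRCAP and -0.61 in cdSRCAP.

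Fzd4, a Frizzled receptor, had 80.9 and 96.8 normalized counts in wtSRCAP control and 145 and 209 with IAA, a log2 fold change of 1.00 ± 0.32 with an edgeR adjusted p of 0.641. In cdSRCAP it was at 107 and 141 in control and 162 and 153 with IAA. Wnt6, a ligand, had 33.2 and 66.9 in cdSRCAP control and 89.4 and 101 with IAA, a log2 fold change of 0.90 ± 0.40 with an edgeR adjusted p of 0.884. Fzd4 and Wnt6 libraries did not overlap in the comparison in which each passed. Wnt3a and Rspo4 passed on few reads. Wnt3a had 1 and 3 raw reads in wtSRCAP control and 17 and 5 with IAA, and in cdSRCAP 0 and 1 in control against 21 and 15 with IAA. Rspo4 had 17 and 7 in wtSRCAP control and 1 and 1 with IAA, whereas its intron reads, 13 and 19 in control and 14 and 11 with IAA, gave a log2 fold change of 0.17.

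The lines themselves differed in some members. Between cdSRCAP and wtSRCAP control cells edgeR called none, where it called 0% of all genes. DESeq2 called 1, Sfrp1, and the share of all genes that DESeq2 called there is not given here. At an unadjusted p under 0.05, 5 members were higher in cdSRCAP and 1 lower, beside 2.5% and 1.32% of all genes. With IAA, in other libraries of the same clones, edgeR and DESeq2 called none, edgeR having called 0.00523% of all genes, and 7 were higher and 2 lower at an unadjusted p under 0.05, beside 2.84% and 2.19%. With the replicate block, edgeR and DESeq2 each called 3 members in control, Dkk3, Sfrp1 and Wnt5a, beside 0.91% and 0.389% of all genes, and 4 with IAA, these and Fzd2, beside 1.41% and 0.8%. The blocked edgeR adjusted p in control was 2.24e-06 for Sfrp1, 0.00439 for Dkk3 and 0.0138 for Wnt5a. Each line was 1 clone, so the SRCAP form and the clone cannot be told apart.

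Sfrp1 had 599.9 and 749.5 normalized counts in wtSRCAP control, 968 and 1082 in wtSRCAP with IAA, 1755 and 2144 in cdSRCAP control and 2275 and 2263 in cdSRCAP with IAA. All cdSRCAP libraries lay above all wtSRCAP libraries, and within each line the IAA libraries lay above the controls. The log2 difference, cdSRCAP less wtSRCAP, was 1.53 ± 0.22 in control and 1.15 ± 0.21 with IAA. The unadjusted p was 4.81e-05 and 0.00041, and the edgeR adjusted p 0.269 and 0.951. In DESeq2 the adjusted p was 8.61e-05 in control and 0.0839 with IAA. The intron column, which in these lines held no reads in single-exon genes, gave 1.56 and 1.06 for the same log2 differences. IAA itself gave 0.60 ± 0.21 in wtSRCAP and 0.22 ± 0.21 in cdSRCAP, and the difference between those responses was -0.39 ± 0.30 with an edgeR adjusted p of 1.

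**Figure D4:**
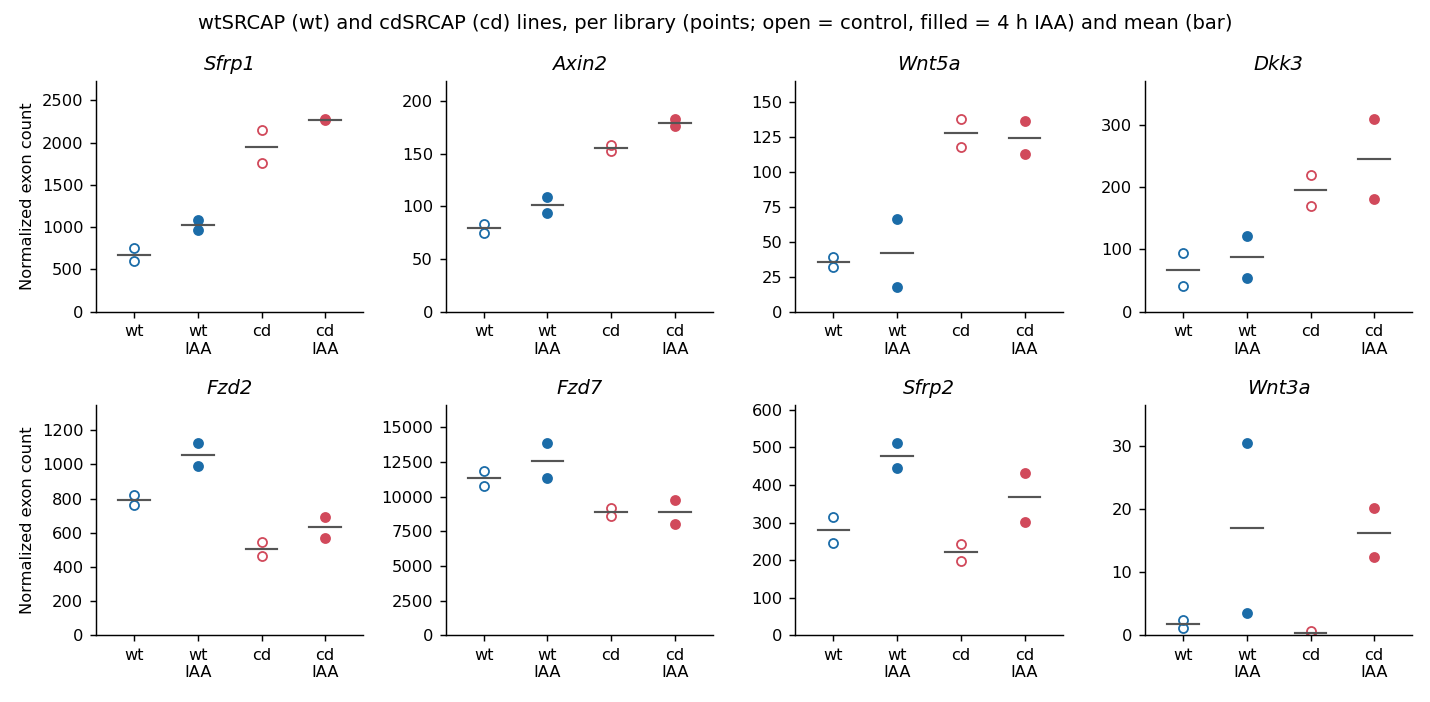
Normalized exon counts of 8 members in the wtSRCAP (blue) and cdSRCAP (red) lines, with open points for control, filled points for 4 h of IAA and bars for the mean of 2 libraries. Sfrp1, Axin2, Wnt5a and Dkk3 were higher in each cdSRCAP library than in each wtSRCAP library, and Fzd2 and Fzd7 lower.

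Axin2 had 83.3 and 75.1 normalized counts in wtSRCAP control, 109 and 93.5 with IAA, 152 and 159 in cdSRCAP control and 183 and 176 with IAA. The cdSRCAP libraries were all above the wtSRCAP libraries, by a log2 difference of 0.97 ± 0.28 in control and 0.83 ± 0.28 with IAA, with edgeR adjusted p of 1 and 0.951. The other feedback gene with many reads, Tcf7, was at 465 and 468 in wtSRCAP and 498 and 529 in cdSRCAP control, and Znrf3 at 1257 and 1005 against 1259.7 and 1064. Nkd1 was at 35.7 and 17.5 in wtSRCAP and 26.3 and 34.9 in cdSRCAP control. The Znrf3 and Nkd1 libraries overlapped there, and none of the 3 genes passed an unadjusted p under 0.05.

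Wnt5a, a ligand known for signalling that does not use beta-catenin, had 32.1 and 39.2 normalized counts in wtSRCAP control, 17.9 and 66.2 with IAA, 118 and 137 in cdSRCAP control and 112 and 136 with IAA. The log2 difference between the lines was 1.83 ± 0.52 in control and 1.49 ± 0.51 with IAA, with edgeR adjusted p of 1 and 0.951. Dkk3, a divergent Dkk family protein, had 40.5 and 94.3 in wtSRCAP control, 53.8 and 122 with IAA, 170.3 and 219 in cdSRCAP control and 181 and 308 with IAA, with differences of 1.52 ± 0.50 and 1.45 ± 0.50. Sfrp5, another secreted antagonist, was at 8.33 and 25.9 in wtSRCAP and 62.3 and 48.4 in cdSRCAP control, a log2 difference of 1.64 ± 0.54 with an edgeR adjusted p of 1. None of these libraries overlapped between the lines.

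Fzd2 went the other way. It had 764 and 822 normalized counts in wtSRCAP control, 988 and 1124 with IAA, 466 and 544 in cdSRCAP control and 695 and 567 with IAA, and all cdSRCAP libraries lay below all wtSRCAP libraries. The log2 difference was -0.65 ± 0.22 in control and -0.74 ± 0.22 with IAA, with edgeR adjusted p of 1 and 0.951. Within the lines its response to IAA was 0.41 ± 0.22 in wtSRCAP and 0.32 ± 0.22 in cdSRCAP. Fzd7 had 11873 and 10767 in wtSRCAP control, 13849.7 and 11323 with IAA, 9198 and 8639 in cdSRCAP control and 9781 and 8006 with IAA, a difference of -0.34 ± 0.21 in control and -0.50 ± 0.21 with IAA.

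With IAA, 3 more members passed an unadjusted p under 0.05 between the lines, all of low level. Wnt11 had 4 and 4 raw reads in wtSRCAP and 29 and 29 in cdSRCAP, Rspo1 had 4 and 23 against 36 and 43, and Rspo4 had 1 and 1 against 17 and 5. In the intron column the log2 difference of Rspo4 was -0.41.

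When the response to IAA in cdSRCAP cells was set against that in wtSRCAP cells, edgeR and DESeq2 called no member and edgeR called 0% of all genes. At an unadjusted p under 0.05, 2 members differed, Wnt6 and Rspo1, beside 0.785% of all genes. Their edgeR adjusted p was 1.

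Of the 41 tested genes of the wider pathway list, none was called in the wtSRCAP or cdSRCAP comparisons by edgeR without the block. With IAA, 5 were higher and 2 lower in wtSRCAP at an unadjusted p under 0.05, and 4 and 1 in cdSRCAP. Between the lines 2 were higher in cdSRCAP and 1 lower, in control as with IAA. The lower ones with IAA were Btrc, at -0.65 ± 0.25 in wtSRCAP and -0.55 ± 0.24 in cdSRCAP, and Dvl3, at -0.60 ± 0.21 in wtSRCAP. Notum, the secreted antagonist that is also a target of the pathway, had log2 fold changes of 0.82 ± 0.24 with IAA in wtSRCAP and 0.57 ± 0.24 in cdSRCAP, and was higher in cdSRCAP than in wtSRCAP control by 1.10 ± 0.24, with edgeR adjusted p of 0.641, 0.868 and 0.982. Sp5, a direct target, had 1.37 ± 0.41 with IAA in wtSRCAP cells, with an edgeR adjusted p of 0.641. Ror1, a receptor for Wnt5a, was lower in cdSRCAP control by -1.11 ± 0.39 with an edgeR adjusted p of 1.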

How the data were processed

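Nuclear RNA was sequenced from 30 libraries in 15 groups of 2. The authors aligned reads to mm10 with STAR and, per the submitters' processing notes, used SAMtools 1.10, Picard, featureCounts and DESeq2, and deposited raw counts per gene over exons and introns, against GENCODE vM25. Deposited tables of the authors' own comparisons (fold changes, p-values) were not used. Exon counts were used first. The intron columns of the time course and of EG1 also held reads of single-exon genes. Gene lengths for RPKM came from GENCODE vM21. Each of the 4 tables was fitted alone in R 4.3.3 with edgeR 4.0.16 (filterByExpr with a minimum count of 10 and a total of 15, TMM, quasi-likelihood test), with Benjamini-Hochberg adjustment over all genes tested. A call was an absolute log2 fold change over 0.5 with an adjusted p under 0.05, or, in the G1 cells, over 0.25 with an unadjusted p under 0.05. Alternatives were DESeq2 1.42.0, the intron counts, no filter, a replicate block and leaving out each library. Same-numbered libraries of the G1 cells and of the lines deviated together in each pair of groups, so blocked calls stand beside those results. In the time course this did not hold for each pair, and blocked edgeR calls are named there too. Genes named with values were the called members, up to 5 by smallest p among those at an unadjusted p under 0.05 in each comparison, the 2 highest per length in each role and the feedback genes (Axin2, Lgr5, Nkd1, Rnf43, Znrf3, Tcf7, Dkk1); others named were chosen after their values were seen. Members and lists were chosen with earlier results of these data known. The test was tried on simulated data with known changes, and the outcome, with the size of change that could be called, is not given here.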

Additional observations from a re-analysis of the deposited data

Results flagged for a closer look

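The response to IAA differed between the cdSRCAP and wtSRCAP lines in 2 members by the test of the difference itself at an unadjusted p under 0.05, and in neither after adjustment in edgeR. For Wnt6 the difference of the log2 fold changes, cdSRCAP less wtSRCAP, was 1.32 ± 0.56, with an unadjusted p of 0.0426 and an edgeR adjusted p of 1, and it was -0.38 in the intron column. For Rspo1 it was 1.86 ± 0.81, with an unadjusted p of 0.0463 and an edgeR adjusted p of 1.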

How the results depend on the processing

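Of the alternatives to the counts of called members, 140 were equal or stayed within 1.5 times and 21 did not. The main count was 0 in every comparison but that of IAA in LG1, so most of those that stayed were 0 again. Of the alternatives to single members, 447 kept direction and side of the threshold, 30 became significant, 3 lost it and 5 reversed. The reversals were all in the intron column: Rspo4 gave 0.17 and Sfrp2 -0.12 with IAA in wtSRCAP, Sfrp2 -0.61 with IAA in cdSRCAP, Rspo4 -0.41 between the lines with IAA, and Wnt6 -0.38 in the difference of responses. The intron column called 3 members in EG1, 0 in LG1 and 27 of 50 between EG1 and LG1, beside 2.28%, 3.94% and 59% of all genes, where 39.1% of single-exon genes had intron reads in EG1 control and 0% in LG1 control. DESeq2 called 0 in LG1 and 1 (Sfrp1) between the lines in control. Without the filter, 1 (Sfrp1) was called between the lines in control and 2 (Sfrp1, Wnt7b) with IAA. The shares of all genes called in these DESeq2 and unfiltered fits are not given here.

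Replicate numbers were shared between groups, and the labels do not say whether they pair libraries. Deviations of same-numbered libraries correlated at 0.0736 in CGR8, -0.0359 to 0.589 in the time course, 0.372 to 0.586 in G1 and 0.259 to 0.376 in the lines. With the replicate block edgeR called 2 members at 6 h (Fzd2, Sfrp1; 4.29% of all genes), 1 at 8 h (Sfrp1; 3.3%), 3 in LG1 (4.2%), 3 in wtSRCAP with IAA (3.2%), 3 between the lines in control (0.91%) and 4 with IAA (1.41%). DESeq2 with the block called 0 in LG1, 2 in wtSRCAP with IAA, 3 between the lines in control and 4 with IAA.

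Leaving out 1 library at a time gave 0 to 4 calls in CGR8 (4 without control replicate 2: Dkk1, Lgr5, Wnt16, Wnt3a; 10.9% of all genes), 0 to 6 at 6 h (6 without 6 h replicate 1: Axin2, Fzd2, Fzd9, Lrp5, Sfrp1, Wnt5b; 15.4%), 0 to 1 in EG1 (1 without control replicate 1: Wnt11; 0.624%), 1 to 2 in LG1 (2 without IAA replicate 1: Fzd8, Sfrp4; 2%) and 0 to 0 in the other comparisons. The lone library left in a group was assumed to vary like the other groups. The causes of these changes were not tested.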

Other observations

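In the intron column of the time course, Sfrp1 was listed at 0 reads in both controls, both 2 h libraries and 1 library of 4 h, and at 37 in the other 4 h library, 186 and 311 at 6 h, and 161 and 507 at 8 h. That column also held reads for single-exon genes, 815 of 1693 of them in SYAT control, whereas the CGR8 control column held them for 0 of 1829.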
